A study of Mus musculus with 18 samples.

Results

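White and brown fat cells are marked here by 10 genes: Adipoq, Lep, Cfd and Retn, which encode secreted proteins, Plin1, Cidec and Cidea, which encode lipid droplet proteins, Fabp4, a fatty acid carrier, Pparg, the transcription factor of fat cell formation, and Ucp1, the heat-producing uncoupling protein. They were chosen by name. Every gene probe named for one of them, or for an older name such as Plin for Plin1, was taken, which gave 13 of the 41174 gene probes and 10 of the 27670 genes named on the array. Of the 10 genes, 9 passed the filter for signal above background and were tested with 14664 genes in all. Lep did not pass.

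The areas were cut by laser capture from frozen thyroid sections of male C57BL/6 mice. The 4 groups were the central (n = 5) and the peripheral area (n = 3) of normal lobes, from glands without surgery, and the central (n = 5) and the peripheral area (n = 5) of lobes after partial thyroidectomy, called dissected in the labels. The time from the operation to tissue collection, the age of the mice and the mouse behind each area are not given, and several areas may come from 1 animal. The p-values measure the spread between areas and may be too small for that reason. Each array compared amplified RNA of 1 area in Cy5 with a commercial Swiss Webster reference RNA in Cy3, pooled from 10 sources: embryo, brain, thymus, spleen, liver, kidney, lung, heart, testicle and ovary. Neither thyroid nor fat is listed in that pool. A level below is the log2 ratio of tissue over reference, and a difference between groups is a difference of such ratios. No level is compared between genes, since each gene has its own reference.

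White fat cells store triglyceride in 1 large droplet coated by perilipin 1 (Plin1) and CIDEC, and secrete the hormones leptin, adiponectin (Adipoq) and, in mice, resistin (Retn), and the complement protease adipsin (Cfd). Brown fat cells hold many small droplets and numerous mitochondria, in which UCP1 lets protons bypass ATP synthesis so that fuel oxidation gives heat. PPARG, bound to DNA with a retinoid X receptor, switches on most of these genes in both kinds of fat cell, while CIDEA marks brown fat. Fat tissue of both kinds lies in the neck close to the thyroid, and thyroid hormone is a regulator of brown fat.

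The probe sequences below are those of Adipoq and Ucp1 and, as different probes of 1 gene side by side, Fabp4 probes 2 and 3 and both Retn probes. Fabp4 probe 1, which stands for its gene in the tests, and the probes of the other members are not shown. The sequences shown are given in the sense of the transcript, 60 bases each, from the array design. Each has at least 1 reading frame open over its whole length. The capitals mark the 22 bases that both Retn probes share.
Adipoq probe 1: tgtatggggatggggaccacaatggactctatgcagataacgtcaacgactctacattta
Ucp1 probe 1: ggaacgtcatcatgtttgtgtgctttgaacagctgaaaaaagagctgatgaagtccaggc
Fabp4 probe 2: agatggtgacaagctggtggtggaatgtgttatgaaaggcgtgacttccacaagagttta
Fabp4 probe 3: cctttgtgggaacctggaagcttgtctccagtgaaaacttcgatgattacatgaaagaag
Retn probe 1: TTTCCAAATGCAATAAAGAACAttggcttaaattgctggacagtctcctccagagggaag
Retn probe 2: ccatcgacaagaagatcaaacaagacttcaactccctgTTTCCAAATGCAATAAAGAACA
On mouse build mm7, used by the array files, the Adipoq probe lies on the plus strand of chr16:22816125-22816184 and the Ucp1 probe on the plus strand of chr8:81866808-81866867. Fabp4 probe 2 spans 730 bases of the minus strand, chr3:10212718-10213447, so its 60 bases come from stretches that are apart in the genome. Fabp4 probe 3 lies at chr3:10216627-10216686, farther toward the start of the gene. Both Retn probes span 822 bases of the plus strand of chromosome 8. The exon or untranslated region under each probe was not determined.

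The upstream sequences of Adipoq and Ucp1 are shown because both genes carry the members' shared pattern described further on while coming from different kinds of fat cell. They are the 250 bases before the RefSeq start on GRCm38.p6, Adipoq at chr16:23146286-23146535 and Ucp1 at chr8:83290098-83290347, both on the plus strand. Capitals mark matches on either strand to AGGTCA, the core site bound by PPARG and other nuclear receptors, and to CCAAT.
Adipoq: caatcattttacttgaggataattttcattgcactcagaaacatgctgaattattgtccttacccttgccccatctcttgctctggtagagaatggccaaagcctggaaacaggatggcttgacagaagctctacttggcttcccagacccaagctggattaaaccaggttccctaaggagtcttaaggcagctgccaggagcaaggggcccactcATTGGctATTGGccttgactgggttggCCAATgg
Ucp1: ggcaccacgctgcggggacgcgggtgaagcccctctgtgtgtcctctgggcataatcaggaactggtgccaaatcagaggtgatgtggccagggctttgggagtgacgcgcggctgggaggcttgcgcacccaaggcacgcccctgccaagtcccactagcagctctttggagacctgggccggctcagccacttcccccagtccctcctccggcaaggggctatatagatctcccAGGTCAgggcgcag
Ucp1 held 1 AGGTCA, ending 9 bases before the start site, and Adipoq held 3 CCAAT, of which 1 was on the plus strand. The member windows counted here were 11 RefSeq windows of 8 of the 10 members. No window of Fabp4 or Cidea was included, so the member counts below do not cover these genes. AGGTCA was in 3 of these 11 windows, belonging to Pparg and Ucp1, and in 14% of all 32851 windows of the same length. CCAAT was in 3 windows, belonging to Adipoq and Pparg, against 33.8% of all windows. The direct repeat of AGGTCA with 1 base between its copies, on either strand, was in 0 of the 11 and in 0.0335% of all windows.

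Of all gene probes, 24.7% to 44.0% were well above background in Cy5 on an array. The 4 arrays with the lowest shares, called weak below, were normal peripheral 1, dissected central 1, dissected central 2 and dissected peripheral 1. Thyroglobulin (Tg) and Nkx2-1 were above background on all 18 arrays, whereas Slc5a5 and Foxe1, also thyrocyte genes, were on none. Among 10 measured C cell genes, 7 were called higher in the central than in the peripheral area of normal lobes and 9 in dissected lobes.

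Signal of fat genes was present in every group. Pparg, Cidec, Cidea, Ucp1, Cfd and the brighter Fabp4 probes were well above background in Cy5 on all 18 arrays, Adipoq on 15 and Plin1 on 14. Lep was above background on none of the 18 in either dye, with Cy5 intensities of 66.4 to 154 and Cy3 intensities of 93.3 to 118. Retn probe 2 was above background on 3 arrays, normal central 1, dissected central 5 and dissected peripheral 5, and on none of the 3 normal peripheral arrays. Retn probe 1 was so on 2 arrays and did not pass the filter. No member's spot was saturated.

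The reference also carried these transcripts, although no fat was named in it. Cy3 was well above background on all 18 arrays for Adipoq, Plin1, Cfd, Pparg, Cidec, Cidea, Ucp1 and Fabp4 probes 1 and 2, and the median Cy3 intensity was 2658 for Ucp1 and 6128 for Cidea. For Ucp1 the unnormalized Cy5 intensity varied 40.4-fold over the arrays and the unnormalized Cy3 intensity 2.90-fold. These ranges include differences in brightness between whole arrays. The normalized ratio of Ucp1 varied 12.1-fold. The log2 ratio of each of the 9 members correlated with the log2 Cy5 signal taken alone at r = 0.81 to 0.998 over the 18 arrays, the lowest value being that of Retn.

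**Figure D1:**
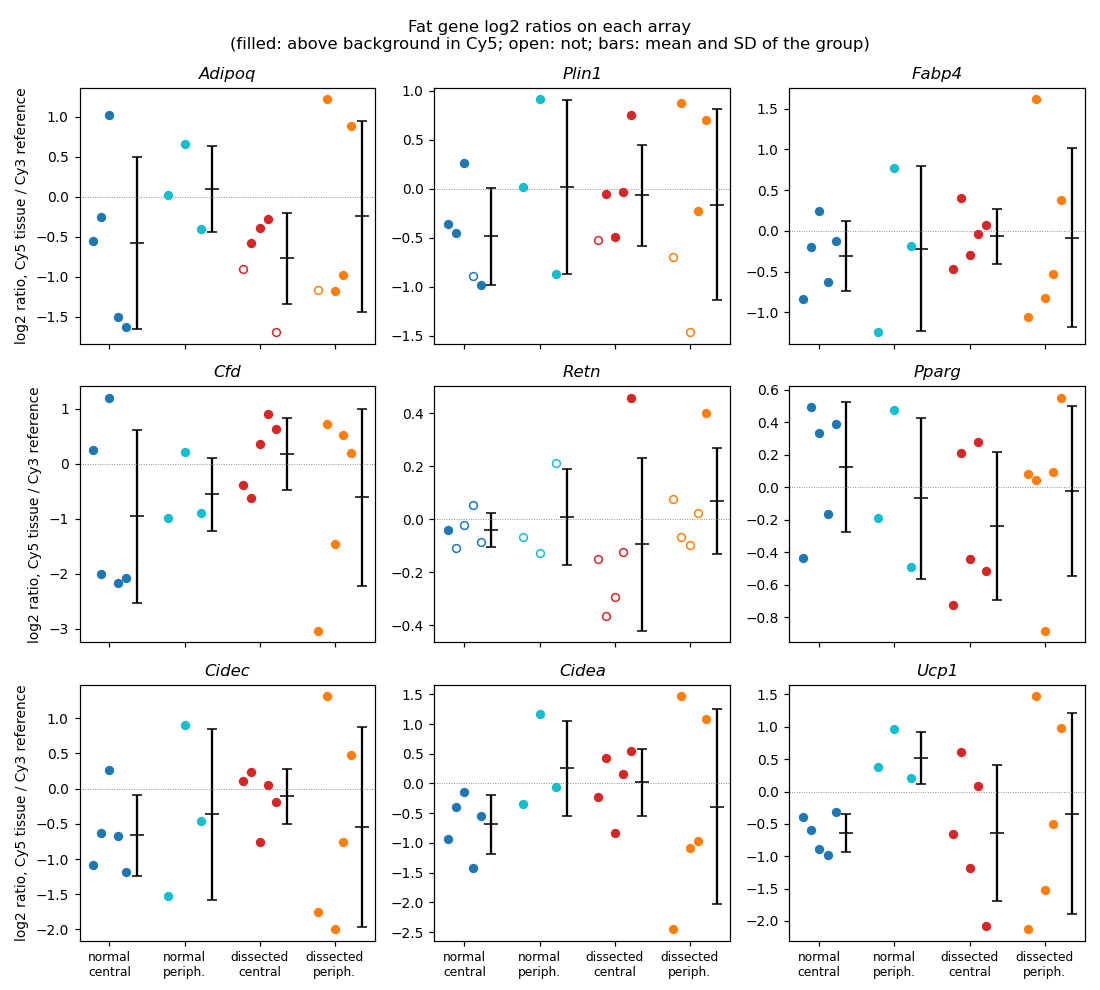
Log2 ratio of tissue (Cy5) over reference (Cy3) for the 9 fat genes that passed the filter, 1 panel a gene, with 1 point an array in replicate order, filled where the spot was well above background in Cy5. Bars give the group mean and SD (n = 5, 3, 5 and 5); groups overlap in every panel apart from normal central and normal peripheral for Ucp1, and each panel has its own vertical scale.

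Ucp1 gave the largest difference of a member between the areas of normal lobes. Its log2 ratio was -0.40, -0.59, -0.89, -0.98 and -0.31 in the 5 normal central areas. It was 0.37, 0.97 and 0.21 in the 3 normal peripheral areas. Every normal central value was below every normal peripheral value, so the groups did not overlap. Central areas had a mean of -0.63 ± 0.29 (SD, n = 5) and peripheral areas one of 0.52 ± 0.40 (SD, n = 3), a difference of -1.15 ± 0.68 (SE), with a 95% interval of -2.58 to 0.27. It did not pass the test over all genes (limma, adjusted p = 0.661). No overlap between these groups was seen for 1 of the 9 members and for 4.86% of all genes tested. Within slides, of which 3 carried both areas, the difference ran from -1.56 to -0.77, and the difference was -0.95 with the slide as a block. Fitted on the 8 normal arrays alone, where the wide spread of Ucp1 after dissection does not enter, the same difference had an adjusted p of 0.0991.

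After dissection the Ucp1 values spread widely in both areas. They were -0.65, 0.61, -1.18, 0.09 and -2.08 in the dissected central areas. They were -2.13, 1.47, -1.52, -0.49 and 0.98 in the dissected peripheral areas. The highest and the lowest of the 18 arrays were both dissected peripheral ones, and each dissected group overlapped both normal groups. Dissected central areas had a mean of -0.64 ± 1.06 (SD, n = 5), and dissected peripheral areas had -0.34 ± 1.55 (SD, n = 5). The change with dissection was -0.01 ± 0.59 (SE) in central areas (adjusted p = 0.999) and -0.86 ± 0.68 (SE) in peripheral areas (adjusted p = 0.76). In order of the group means, normal peripheral came first, followed by dissected peripheral, normal central and dissected central, and these last 3 groups overlapped.

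Cidea, the other brown fat gene, was -0.93, -0.40, -0.14, -1.42 and -0.54 in normal central areas. It was -0.35, 1.16 and -0.05 in normal peripheral areas. Normal peripheral 2 and 3 stood above all normal central values, while normal peripheral 1 lay inside their range. The difference of -0.94 ± 0.67 (SE) between these areas did not pass the test (adjusted p = 0.729). The dissected peripheral values of Cidea were -2.45, 1.47, -1.09, -0.96 and 1.09, so that 2 areas were high, 3 were low and none lay between. In dissected central areas Cidea ran from -0.83 to 0.55 with a median of 0.16. The change with dissection was 0.70 ± 0.58 (SE) in central and -0.64 ± 0.67 (SE) in peripheral areas. The difference of these changes, 1.35 ± 0.88 (SE), was the largest of the 9 members and had an adjusted p of 0.795.

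Among the secreted proteins, Cfd had the widest spread. Its log2 ratio was 0.26, -2.00, 1.20, -2.16 and -2.08 in the normal central areas. It was -0.39, -0.63, 0.36, 0.91 and 0.63 in the dissected central areas. The normal central group held 3 low and 2 high areas, and the dissected central values lay inside its range. The mean was -0.96 ± 1.58 (SD, n = 5) in normal and 0.18 ± 0.66 (SD, n = 5) in dissected central areas, a difference of 1.14 ± 0.73 (SE), or 2.20-fold (adjusted p = 0.998). Cfd was -0.99, 0.21 and -0.90 in normal peripheral areas. It was -3.03, 0.73, -1.46, 0.52 and 0.20 in dissected peripheral areas, which reached both above and below the normal ones. The peripheral difference was -0.05 ± 0.84 (SE, adjusted p = 0.995).

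Adipoq was -0.56, -0.26, 1.03, -1.50 and -1.63 in normal central areas. It was 0.03, 0.66 and -0.40 in normal peripheral areas. Normal central 3 alone was above the peripheral values. Adipoq was -1.17, 1.22, -1.18, -0.98 and 0.89 in dissected peripheral areas, again with 2 high and 3 low areas. In dissected central areas it ran from -1.69 to -0.28, and the arrays at -0.91 and -1.69 there, like the one at -1.17 in the dissected peripheral group, were not above background. Retn stayed within -0.37 to 0.46 over the 18 arrays, the lowest range of the 9 members. Its values in normal peripheral areas are bounds, and no fold is given for comparisons with that group.

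Cidec, Plin1 and Fabp4, the droplet proteins and the carrier, had the same pair of high areas in the dissected peripheral group. Cidec was -1.75, 1.31, -2.00, -0.76 and 0.48 in dissected peripheral areas, a 9.88-fold range. Plin1 was -0.69, 0.87, -1.46, -0.23 and 0.70 in the same areas, of which those at -0.69 and -1.46 were not above background. Fabp4 was -1.05, 1.62, -0.83, -0.53 and 0.38. In all 3 genes dissected peripheral 2 and 5 were the highest of the group. Normal peripheral 2 was also high, at 0.90 for Cidec, 0.91 for Plin1 and 0.78 for Fabp4. Some central areas were above dissected peripheral 5 as well: dissected central 5 for Plin1, at 0.75, and dissected central 2 for Fabp4, at 0.40. For Cidec the highest central value was 0.27, on normal central 3. Pparg varied less, from -0.88 on dissected peripheral 3 to 0.55 on dissected peripheral 5.

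Fabp4 was read by 3 probes. Probes 1 and 2, the bright ones, followed each other over the 18 arrays at r = 0.98 (Spearman 0.98). Without the 2 arrays on which probe 1 lay farthest from its median, r was 0.96. Probe 3, toward the start of the gene, was above background in Cy5 on 7 arrays and correlated with probe 1 at 0.69 (Spearman 0.69, r = 0.59 without those 2). On normal central 3 its Cy3 intensity was 741 and its Cy5 intensity 897, against a median Cy3 of 139. None of the 3 probes was called in any of the 5 comparisons, and their differences with dissection in central areas were 0.24 ± 0.43 (SE), 0.27 ± 0.47 (SE) and 0.19 ± 0.24 (SE).

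No member passed the test in any comparison. With dissection in the central area 0 of 9 were called, and 0% of all genes. The median member difference was 0.24 there, with 5 of 9 above 0, against -0.01 for all genes. With dissection in the peripheral area 0 of 9 members and 0% of all genes were called, with a median member difference of -0.18 and 3 of 9 above 0. Those 3 include Retn, at 0.06, whose sign is not determined, since none of its normal peripheral values was above background. Between central and peripheral areas of normal lobes 0 of 9 members and 0.28% of all genes were called. There 8 of the 9 differences were below 0, with a median of -0.40, and that of Pparg was above. The 8 include Retn, at -0.05, whose sign is not determined because none of its normal peripheral values was above background. Between the areas of dissected lobes 0 of 9 members and 0.586% of all genes were called, with a median of 0.02. The central change with dissection minus the peripheral one was called for 0 of 9 members and 0% of all genes. The arrays of both groups were fully apart for 0 of 9 members with dissection in central areas, against 1% of all genes, for 0 of 9 in peripheral areas, against 4.21%, and for 0 of 9 between the areas of dissected lobes, against 1.67%. None of the 9 had an unadjusted p under 0.05 in any of these 5 comparisons, in limma, where 5.24%, 8.35%, 8.59%, 7.43% and 5.82% of all genes did. In limma's F test among the 4 groups 0 of 9 were called, against 1.06% of all genes, and 0 of 9 had an unadjusted p under 0.05, against 8.93%. The comparisons that share a group share its arrays, so their values are not independent.

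The intervals show what size of difference these arrays leave possible. The distance from the estimate to either end of the 95% interval had a median of 1.12 over the members for dissection in central areas, against 0.41 for the median gene. For dissection in peripheral areas it was 1.30 against 0.47. For Adipoq the central interval ran from -1.31 to 0.94. For Pparg it ran from -0.94 to 0.22.

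**Figure D2:**
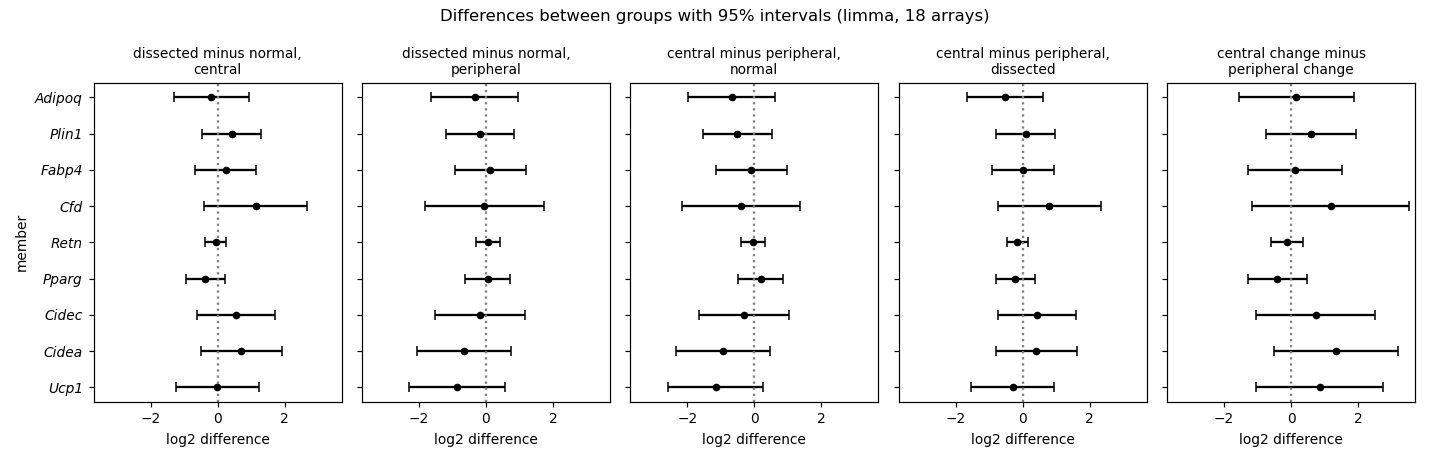
Differences of log2 ratios between groups for the 9 fat genes (points) with 95% intervals (bars) from limma over 18 arrays, 1 panel a comparison, the last showing the central change with dissection minus the peripheral one. Every interval crosses 0, and those of Cfd, Cidea and Ucp1 are the widest.

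Most members varied widely between areas of the same group. The SD within groups of the log2 ratio, after fitting the 4 group means, was 1.28 for Cfd, 1.03 for Ucp1, 1.01 for Cidea, 0.96 for Cidec and 0.93 for Adipoq. It was 0.76 for Fabp4 and 0.73 for Plin1. The median gene had 0.32 and the 95th percentile lay at 0.65. Of the 9 members 7 were above that percentile, as were, by its definition, 5.01% of all genes. Pparg, at 0.47, was at the 81.8th percentile and Retn, at 0.22, at the 21.1th. The SD of Retn is mostly that of values near background, since it was above background in Cy5 on only 3 arrays. The members' SD was largest in dissected peripheral areas, where its median was 1.19 against 0.28 for all genes. It was 0.50 in normal central, 0.67 in normal peripheral and 0.52 in dissected central areas. Whether these SDs differ between groups was not tested.

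**Figure D3:**
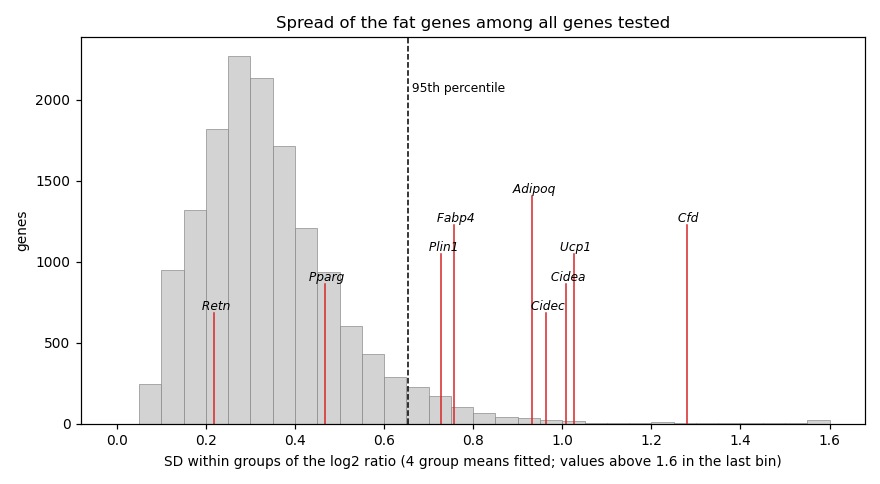
Number of genes (bars, of 14664 tested) by the SD within groups of their log2 ratio, with the 9 fat genes as red lines, whose heights carry no value. The dashed line is the 95th percentile, at 0.65, and 7 of the 9 lie to its right.

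Most members tended to be high and low on the same arrays. To describe this, each member was centred on its mean and divided by its SD over the 18 arrays, and the 9 were averaged. The mean was highest on dissected peripheral 2, at 1.37, dissected peripheral 5, at 1.24, and normal peripheral 2, at 1.07. It was lowest on dissected peripheral 3, at -1.16, and dissected peripheral 1, at -1.06. Dissected peripheral 2 was among the 3 highest arrays for 7 of the 9 members and the very highest for 5. Dissected peripheral 1 and 3 were each among the 3 lowest for 5. The dissected peripheral group thus held both ends of the order, while central areas of either state lay between -0.69 and 0.60. With the same mean taken over the other members, a member correlated at r = 0.58 to 0.87, apart from Pparg, at 0.42, and Retn, at 0.03. On dissected central 5 the members parted, with Ucp1 at -2.08 and Adipoq at -1.69 but Plin1 at 0.75 and Cidea at 0.55 as log2 ratios.

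**Figure D4:**
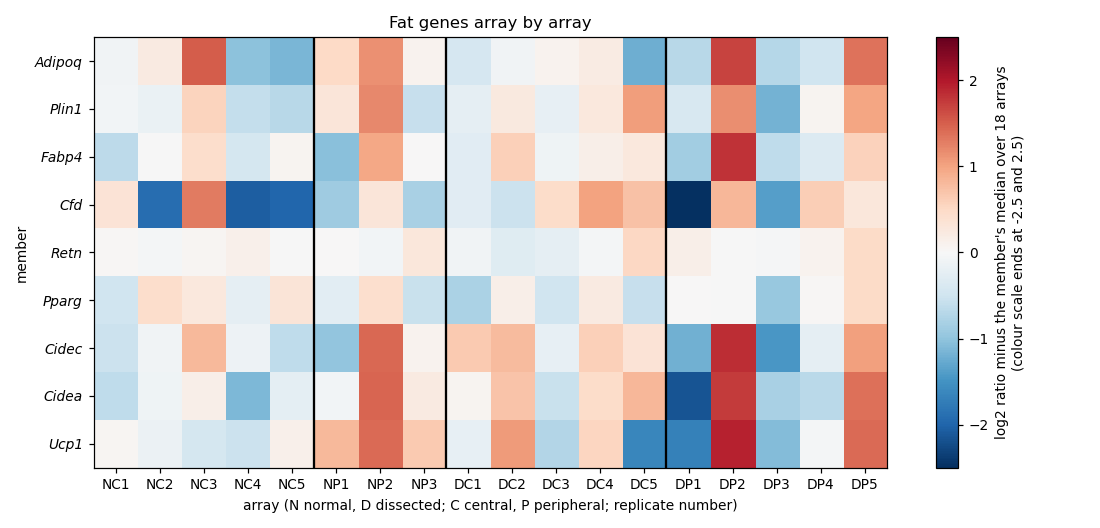
Log2 ratio of each fat gene (rows) on each array (columns, grouped by black lines), minus the gene's median over the 18 arrays, with red above and blue below. Columns DP2, DP5 and NP2 are red and DP1 and DP3 blue for most genes, while the row of Retn is nearly white.

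Over the 18 arrays the 36 pairs of members had a median r of 0.52 (Spearman 0.49), and 19 pairs reached 0.5. With the group means removed the median was 0.58, so the likeness was present within groups. The closest pair was Fabp4 and Cidec, at r = 0.89 (Spearman 0.87), followed by Cidec and Cidea at 0.85 and Fabp4 and Cidea at 0.84. Retn followed no other member, with r from -0.17 to 0.26, but it was above background in Cy5 on only 3 arrays. Its r thus rests mostly on values near background. Without Retn the median of the other 28 pairs was 0.62. Pparg and Cfd were nearly unrelated to each other, at r = 0.03. In a further check, 2 arrays were left out of each pair, those on which its first gene lay farthest from that gene's median. The arrays left out thus differed between pairs. This lowered the median of the 36 to 0.42, and without the 5 dissected peripheral arrays it was 0.34. These correlations describe arrays that share a reference and may share animals, and they have no p-value.

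**Figure D5:**
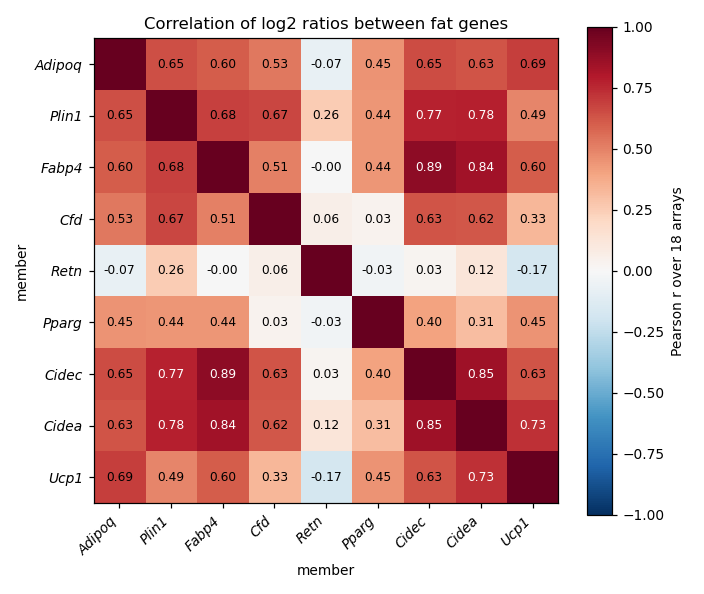
Pearson correlation over the 18 arrays between the log2 ratios of each pair of the 9 fat genes, red for positive and blue for negative, with the value in each cell. The block of Cidec, Cidea, Fabp4 and Plin1 lies between 0.68 and 0.89, and the row of Retn between -0.17 and 0.26.

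White and brown members were mostly high on the same arrays. The mean of the 6 white or shared members with clear signal (Adipoq, Plin1, Fabp4, Cfd, Pparg and Cidec) was compared with that of the 2 brown ones (Ucp1 and Cidea). These means correlated at r = 0.82 over the 18 arrays (Spearman 0.68). Without the 2 arrays on which the brown mean lay farthest from its median, r was 0.74. The array on which they parted most was normal central 3, with a white mean of 0.97 and a brown mean of -0.20 in SD units. There Adipoq and Cfd were high, at 1.03 and 1.20 as log2 ratios, while Ucp1 was -0.89. Dissected peripheral 1 was lower in brown, at -1.98, than in white members, at -1.01.

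Of the 10 genes whose pattern was most like the mean of the 9 members, 4 were on the list of lipid synthesis, storage and droplet genes. By correlation over 18 arrays with 14655 other genes they were Scd1, a fatty acid desaturase, at 0.90, Slc36a2, an amino acid transporter, at 0.87, Fasn, fatty acid synthase, at 0.87, and Dgat2, which makes triglyceride, at 0.85. Then came Ptger3, a prostaglandin receptor, at 0.82, Lpl, lipoprotein lipase, at 0.80, a transcript known only by its array name NAP033010-1, at 0.80, Gpd1, which makes glycerol phosphate, at 0.79, Acacb, an acetyl-CoA carboxylase, at 0.79, and Cd1d1, at 0.78. Scd1, Fasn, Dgat2 and Gpd1 were on that list, Lpl was on the list of lipolysis and fatty acid uptake genes, and the other 5 were on none. NAP033010-1 was above background in Cy5 on only 5 of the 18 arrays, with log2 ratios of -0.003 to 0.39. Ptger3 was so on 11. A correlation of at least 0.7 was reached by 23 of the 14655 genes, or 0.157%, and the median gene was at 0.01. Scd1 itself ran from -1.78 to 1.26 in dissected peripheral areas.

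The other genes of fat cells were taken as lists. Of 21 measured genes of lipid synthesis, storage and droplets, 4 reached a correlation of 0.7 with the member mean, and of 11 genes of lipolysis and fatty acid uptake 2 did, Lpl and the fatty acid receptor Cd36. Of 19 transcription factors and hormones 1 did, the insulin-regulated glucose carrier Slc2a4, and of 17 brown fat genes outside the members 0 did, Cox8b, a subunit of muscle and brown fat cytochrome oxidase, being at 0.67. The mean of the lipid synthesis list followed the member mean at r = 0.87, and that of the brown list at 0.34.

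None of these 4 lists held a called gene in any of the 5 comparisons. With dissection in the central area 13 of 21 lipid synthesis genes were above 0, with a median of 0.10, and the smallest p belonged to Plin2, the droplet coat protein of cells of many types. Plin2 was 0.52 ± 0.15 (SE) higher in dissected than in normal central areas (limma, adjusted p = 0.692). In peripheral areas it was 0.61 ± 0.18 (SE) higher (limma, adjusted p = 0.454). It followed the members weakly, at r = 0.32. Cebpb, a transcription factor of early fat cell formation and of injury responses, was 0.64 ± 0.20 (SE) higher after dissection in central areas (adjusted p = 0.698).

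Of the 11 genes of lipolysis and fatty acid uptake, 9 were below 0 for dissected minus normal peripheral areas and 2 above, with a median of -0.20 against 0.01 for all genes. None was called, and 3 had an unadjusted p under 0.05, as did 8.35% of all genes. Mgll, which cleaves the last fatty acid from glycerol, was -1.08 ± 0.28 (SE, adjusted p = 0.386), with values of -1.10 to -0.61 in dissected and -0.28 to 0.99 in normal peripheral areas. Gpihbp1, which holds lipoprotein lipase on capillaries and is also an endothelial marker, was -0.96 ± 0.31 (SE, adjusted p = 0.514). Neither followed the members, with r of 0.03 and -0.10. In the same areas Rarres2, the gene of the secreted protein chemerin, was -0.81 ± 0.30 (SE, adjusted p = 0.538).

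In normal lobes none of the 17 brown fat genes outside the members was called between the areas. For central minus peripheral 14 were below 0 and 3 above, with a median of -0.23 against 0.01 for all genes, and 3 had an unadjusted p under 0.05, as did 8.59% of all genes. Cox8b ran from -2.17 to -0.48 in central and from -0.19 to 1.03 in peripheral areas, a difference of -1.56 ± 0.55 (SE, adjusted p = 0.393). Cox7a1, another oxidase subunit of brown fat, heart and muscle, differed by -0.91 ± 0.28 (SE, adjusted p = 0.291), from -1.34 to -0.32 in central and from 0.04 to 0.35 in peripheral areas. Gpd1, of the lipid synthesis list, differed by -0.89 ± 0.34 (SE, adjusted p = 0.442). In dissected lobes the same list had 7 of 17 above 0, a median of -0.10 and no gene with a p under 0.05, and Cox7a1 was -0.33 ± 0.24 (SE, adjusted p = 0.869). The largest list difference by p in dissected lobes was that of Agt, angiotensinogen, at 1.44 ± 0.43 (SE, adjusted p = 0.21), higher in the central area.

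In bulk areas of this kind, fewer fat cells and less RNA per fat cell cannot be told apart. Marker lists of other cells did not follow the member mean closely. The correlation of the list mean with it was -0.08 for 10 of 12 thyrocyte genes and -0.15 for 10 of 11 C cell genes. For 12 of 12 endothelial genes it was 0.13, and for 9 of 10 connective tissue genes 0.29. It was 0.29 for the 10 measured macrophage genes, from 14 listed names that include older ones, such as Emr1 for Adgre1. For 8 of 12 skeletal muscle genes it was -0.41, and the list mean ran from -1.44 to 0.95 in dissected peripheral areas and from -1.49 to 0.81 in normal central areas. In that list Ckm was above background on none of the arrays, and Mylpf and Actn3 on 2 each. The mean of the connective tissue list ran from -1.14 to 0.24 in dissected peripheral and from -0.52 to 0.53 in normal central areas. Its single genes correlated with the member mean at r = -0.10 to 0.61, with a median of 0.27. The highest was Pdgfra, a marker of fat precursor cells and fibroblasts. The part of these cells in the spread of the fat genes was not tested.

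The share of probes above background correlated with the member mean at r = 0.32 over the 18 arrays (Spearman 0.15) and at 0.23 without the 4 weak arrays. The low array dissected peripheral 3 was not a weak one, with 37.3% of probes above background, whereas dissected peripheral 1, at 28.7%, was. Slide 4, which held arrays numbered 2 of all 4 groups, had the highest mean of the member score, at 0.63, and slide 3, with arrays numbered 1, the lowest, at -0.51. With the slide as a block, or without the weak arrays, 0 of 9 members were called in each of the 5 comparisons, and the median r among members without the weak arrays was 0.54. Each group sat at 1 position of the slide, so group and position cannot be told apart.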

How the data were processed

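RNA of 18 laser-captured thyroid areas was measured on 2-colour Agilent arrays on 5 slides, scanned on 2 days, 3 to 5 arrays a group, whose number limits the precision. The members and gene lists were chosen with earlier results of these data known.

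The deposited scanner files hold mean spot intensity and local background intensity per channel, and flags for background, saturation and uniformity, per the file headers. The scanner program was Agilent Feature Extraction, version 9.5.1.1 in those headers and 8.5.1.1 per the submitters' processing notes. Their processed intensity and log10 ratio of Cy5 over Cy3 were background-subtracted and dye-normalized by that program, per the file headers. The authors' value table holds linear ratios. Which steps made them is not given in the sources used here, and its scale and direction were read from its agreement with the scanner ratios (r of at least 0.993 per array after centring each probe, column medians of 0.871 to 1.06). Centring before deposit stays unknown, and the table served only as an alternative.

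Intensities were corrected with normexp (offset 50) and normalized by loess within arrays. Non-uniform spots, at most 108 an array, and 1639 control spots were left out, and spots of a probe were averaged. Probes well above background in Cy5 on at least 3 arrays were kept (19082), the brightest standing for its gene. They were named through RefSeq (GRCm38.p6) by accession for 22951 of the 41174 gene probes, by symbol for 6659, by older symbol for 3109 and by the file for 8455. The 4 group means were fitted with limma 3.58.1 in R 4.3.3, two-sided, with Benjamini-Hochberg adjustment over 14664 genes and calls at an adjusted p under 0.05. The fit was tested on simulated data.

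All members and all their probes are described. Of the 4 lists of fat genes, every called gene would be named, and otherwise the 2 with the smallest p a comparison, of which the text gives a part. The 10 genes most like the member mean were named by correlation. Genes of the lists named for their correlation with it, and Pdgfra, were chosen after their values were seen. Marker lists of parathyroid, smooth muscle, mast and blood cells correlated with the member mean at 0.09, 0.10, -0.14 and 0.14, and the remaining 4 brown fat cell markers at 0.65. Alternatives were the processed intensity, another offset, scaling between arrays, Cy5 alone, the value table, other filters and probe choices, blocks and left-out arrays.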

Additional observations from a re-analysis of the deposited data

How the results depend on the processing

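Over 1376 member differences under the alternatives, 0 were called, 7 had an unadjusted p under 0.05 and 80 changed sign, none of which had been called. The smallest adjusted p was 0.0991, for Ucp1 between the areas of normal lobes with only those groups fitted. Retn and Plin1 held the 12 values that moved by over 1 SD, all with processed intensities or the authors' value table, which has no Pparg. Retn fails the filter at 9 arrays. The count of all genes called between the areas of normal lobes, 41, was 78 with processed intensities, 95 with scaling between arrays, 94 with the value table, 8 without a filter, 18 with the slide as a block and 95 without the 4 weak arrays. Between the areas of dissected lobes it was 86, and 30 with scaling, 45 with Cy5 alone, 21 with only those groups and 193 without the weak arrays. For dissection in peripheral areas 1 gene was called with processed intensities and 1 with the value table. Leaving out 1 array gave 1 to 76 genes in normal lobes (1 without normal peripheral 2, 2 without normal central 1 or 3, 76 without dissected central 2), 48 to 173 in dissected lobes (48 without dissected central 3, 173 without dissected central 2) and 0 to 1 for dissection in each area. The cause was not tested. Over arrays with both members above background the median correlation among members was 0.61. That median covers only the 28 pairs without Retn, which had 0.62 over all 18 arrays. For all 36 pairs the median was 0.54 with Cy5 alone and 0.48 to 0.62 with 1 array left out. In alternatives chosen after seeing the data, the median among members was 0.34 without the dissected peripheral arrays and 0.52 to 0.59 with other processing.

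Same-numbered arrays mostly shared a slide, but the labels do not tie the numbers to mice, so the numbers were not taken as pairs. Deviations of same-numbered arrays correlated over 0.1 in 1 of 5, 1 of 3, 1 of 3 and 4 of 5 pairs of the 4 comparisons. Arrays correlated best with their own number in 3 of 5, 2 of 3, 1 of 3 and 5 of 5 pairs. In the last comparison, between the areas of dissected lobes, the r of same-numbered arrays was 0.07 to 0.21. A shared slide and a shared animal cannot be told apart there. With a replicate block 0 members were called, the Ucp1 difference between the areas of normal lobes was -1.20 (adjusted p = 0.502), and 4 genes in all were called there and 84 in dissected lobes.

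Levels near background limit Retn, Lep, Plin1 and Adipoq. With 3 normal peripheral arrays, a member difference in peripheral areas has a 95% interval reaching 1.30 to either side at the median.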
